A study of Pyronema omphalodes CBS 100304 with 9 samples.

Results

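The comparison of sexual with dark-grown vegetative mycelium covers 11440 genes of Pyronema omphalodes (also called Pyronema confluens), of 13369 genes in the deposited count table. A gene was included where at least 2 of the 4 libraries compared held at least 10 counts. The fungus is a soil-dwelling filamentous ascomycete, and the strain is labelled CBS 100304. Sexual mycelium 1 and 2 came from surface cultures on WPC medium in constant light, in which fruiting bodies form. Vegetative mycelium 1 and 2 came from surface cultures on the same medium in constant darkness, which stay vegetative. In both groups RNA of days 3, 4 and 5 was pooled. The labels call libraries 1 and 2 technical replicates, so that the spread within each group may be only technical. Illumination and sexual development changed together, and their effects cannot be told apart in this design. A pair of further groups, whose libraries share no sample with the comparison, is set beside the levels. The vegetative pool (2 libraries) mixed 3 cultures of 3 days: submerged in WPC medium in light, submerged in WPC medium in darkness, and on the surface of BMM medium in darkness. The protoapothecia (3 biological replicates, A, B and C) are young fruiting bodies cut out by laser microdissection from ethanol-fixed cultures grown for 4 days at 25 °C on slides with 150 µl of WPC medium with 0.8% agar. Their RNA was linearly amplified, unlike that of the mycelia. The p-values below rest on a spread estimated over all 9 libraries. That estimate joins the spread of the mycelium pairs, which may be only technical, with the biological and amplification spread of the protoapothecia.

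In Pyronema, light is needed for fruiting body formation, and the fruiting bodies, small open discs called apothecia, are coloured by carotenoids. Sexual development in filamentous ascomycetes starts with the pairing of male and female organs, continues with a phase in which nuclei of both mating partners divide side by side, and ends with nuclear fusion, meiosis and ascospore formation inside sac-shaped asci. A bulk sample of a sexual culture holds fruiting bodies of several ages together with ordinary vegetative hyphae. In such samples fewer cells of a type and less RNA per cell cannot be told apart.

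Sexual mycelium 1 and 2 held 17221767 and 22132904 counts in the deposited table, and vegetative mycelium 1 and 2 held 14265890 and 14835205. The other 5 libraries ranged from 5583951 (protoapothecia B) to 24803660 (protoapothecia C). Log2 levels correlated at 0.977 between both sexual libraries, at 0.986 between both vegetative libraries and at 0.741 to 0.769 between a sexual and a vegetative library. Levels below are CPM, the counts relative to the TMM-scaled library size, where 3 counts in 1 library are worth 0.111 to 0.200 CPM in the mycelia. CPM are not corrected for transcript length, so levels are compared between libraries and not between genes. Log2 fold changes are sexual minus vegetative and come with a standard error (SE) and the Benjamini-Hochberg adjusted p of edgeR's quasi-likelihood test over all 11440 genes. The SE is not an output of edgeR. It was derived as the absolute log2 fold change divided by the square root of the test's F statistic.

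A total of 2418 genes (21.1% of those tested) were higher in sexual mycelium and 1064 (9.30%) were lower at an adjusted p below 0.05, together 30.4%. In all 3482 the CPM of both groups did not overlap, which held for 8710 of all genes tested. The median log2 fold change of all genes was 0.07. The rises were larger than the falls. Among genes with more than 3 counts in each group, 788 called genes were at least 10-fold higher and 195 at least 100-fold higher in sexual mycelium, against 154 and 7 in vegetative mycelium. The filter admitted some genes through 1 group alone. Of the genes tested, 1780 had fewer than 10 counts in both vegetative libraries and passed through the sexual libraries alone, and 1431 of these were called higher. The reverse held for 71 genes, of which 50 were called lower. Among the 9156 genes with at least 10 counts in both vegetative libraries, 806 (8.80%) were higher and 1064 (11.6%) lower, a restriction that by its construction drops rises from near the floor and no falls. With no filter beyond 1 count, 2458 genes were higher and 1026 lower. With a single library left out, the counts were 1684 to 1924 higher and 560 to 645 lower. The count of falls was 560 without sexual mycelium 1, 598 without sexual mycelium 2, 645 without vegetative mycelium 1 and 624 without vegetative mycelium 2. A fit of the 4 libraries alone gave 2996 higher and 1954 lower.

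The genes that rose were mostly near the detection floor in vegetative mycelium, and most had no described product. Their median level was 11.5 CPM in sexual mycelium, 0.258 CPM in vegetative mycelium, 0.443 CPM in the vegetative pool and 10.5 CPM in protoapothecia. The genes that fell had median levels of 17.5, 65.6, 53.8 and 18.9 CPM in the same order. No product was described for 1621 of the genes that rose (67.0%), against 262 of those that fell (24.6%) and 34.0% of all genes tested. The predicted proteins of the genes that rose had a median length of 225 residues, against 365.5 for those that fell and 317.5 for all genes tested, and 74.4% of the former had no Pfam domain, against 43.9% and 45.7%. An extracellular location was predicted for 13.5% of the genes that rose and 16.3% of those that fell, against 8.70% of all genes tested. Of the 2418 genes that rose, 1431 had fewer than 10 counts in both vegetative libraries and passed the filter through the sexual libraries alone. Among all tested genes with at least 10 counts in both vegetative libraries, 2054 of 9156 had no described product. The shares and lengths of the genes that rose were not separated from this filter.

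**Figure D1:**
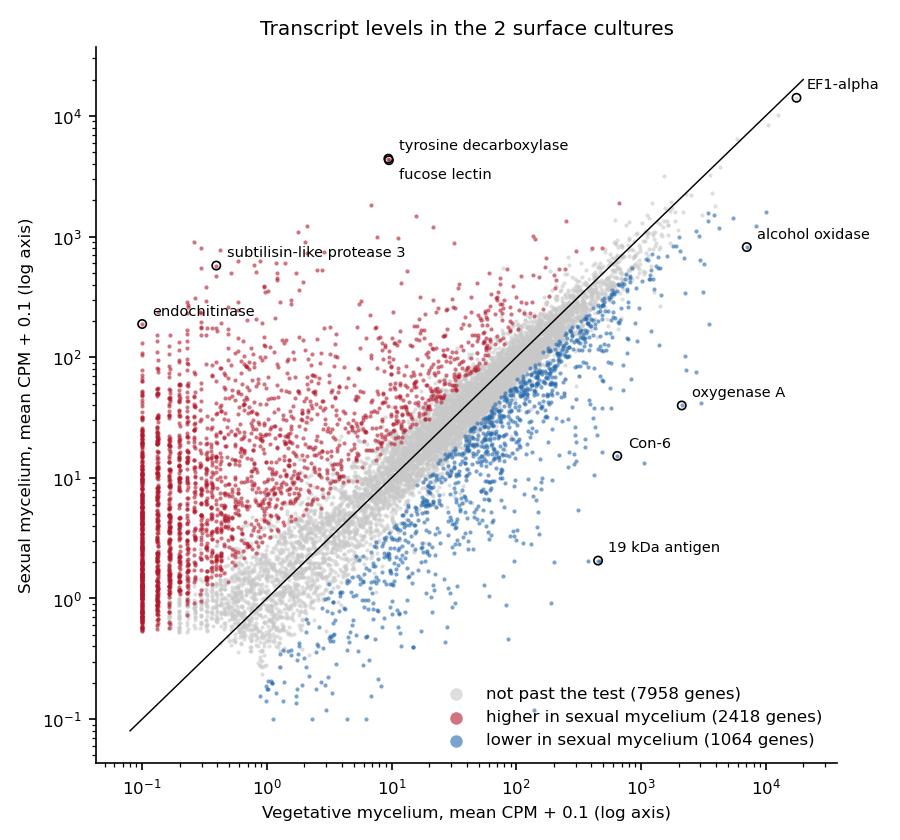
Mean CPM plus 0.1 of each of the 11440 genes in vegetative mycelium (x axis) and in sexual mycelium (y axis), both on log10 axes, with 2 libraries behind each mean and 9 genes of the text labelled. The line marks equal levels. Genes called higher (2418) lie above the diagonal and reach down to 0 CPM in vegetative mycelium, and genes called lower (1064) lie below it, mostly at vegetative levels near or above the median of 65.6 CPM.

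The plot of vegetative against sexual levels shows this asymmetry. The cloud of rising genes extends to the left edge, where vegetative mycelium held no counts (421 of the genes that rose), while 4 of the genes that fell had no counts in sexual mycelium. A group of 463 genes stood at 10 CPM or more in sexual mycelium and below 1 CPM in both vegetative mycelium and the vegetative pool. Of these, 462 were called higher, which the choice by level largely fixes. No product was described for 351 (75.8%), beside 67.0% of all genes that rose. The same 463 genes were not uniform in protoapothecia, where 279 reached 10 CPM, 120 lay between 1 and 10 CPM and 64 lay below 1 CPM. The opposite pattern, 10 CPM or more in vegetative mycelium and below 1 CPM in sexual mycelium, was found in 23 genes. All 23 were called lower, which the choice again largely fixes, and none of them reached 10 CPM in protoapothecia.

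The 12 described genes with the largest rises included an endochitinase, a protease, a wall protein and a cytochrome P450. For these and for the largest falls below, groups without overlap were a condition of choice and not a result. An endochitinase, PCON_11242, which would cut chitin chains of the cell wall internally, stood at 131 and 245 CPM in sexual mycelium 1 and 2 and had 0 counts in both vegetative libraries. Its level in sexual mycelium was at least 1924-fold higher than a floor of 3 counts over the vegetative group, and it was lower in protoapothecia, at 7.05, 5.45 and 31.5 CPM in A, B and C. The subtilisin-like protease 3 gene PCON_01303 stood at 598 and 551 CPM against 0.267 and 0.319 CPM, a difference of 1960-fold (log2 fold change 10.90, SE 0.42, edgeR adjusted p = 7.68e-06). Both sexual libraries lay far above both vegetative libraries for these genes, without overlap. The protease gene was higher still in protoapothecia, at 5974, 4385 and 4131 CPM, and near the floor in the vegetative pool, at 0.423 and 0.454 CPM.

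Further genes with 0 counts in both vegetative libraries fell into those with higher and those with lower levels in protoapothecia than in sexual mycelium. The cytochrome P450 52A13 gene PCON_02777 (P450 enzymes of this family hydroxylate alkanes and fatty acids in yeasts) stood at 35.7 and 107 CPM in sexual mycelium, at least 730-fold above the floor, and at 181, 293 and 349 CPM in protoapothecia. A gene described as RCC1 and BTB domain-containing protein 2, PCON_11137, stood at 46.9 and 47.8 CPM, at least 484-fold above the floor, and at 157 to 301 CPM in protoapothecia. PRY1 (PCON_04545), whose yeast counterpart is a secreted sterol-binding protein, stood at 9.95 and 11.7 CPM and at 264 to 496 CPM in protoapothecia. These genes had higher levels in every protoapothecium library than in either sexual library. A chitin-binding peritrophin-1-like gene, PCON_09947, stood at 21.0 and 26.4 CPM with protoapothecia at 16.4 to 67.8 CPM, and the copper transporter gene CTR1, PCON_05505, at 17.5 and 18.3 CPM with protoapothecia at 11.3 to 55.0 CPM, so that their protoapothecium libraries overlapped the sexual ones. In contrast, a TRIM31-like ubiquitin ligase gene, PCON_03364, stood at 13.1 and 26.7 CPM in sexual mycelium and at 0.304 to 3.33 CPM in protoapothecia, and an ankyrin repeat and SOCS box protein 8 gene, PCON_04190, at 15.3 and 5.46 CPM and at 0 to 0.302 CPM. Among undescribed genes, PCON_06761 stood at 60.3 and 157 CPM and PCON_04163 at 191 and 68.8 CPM, with 0 counts in both vegetative libraries.

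The wall protein gene PIR3, PCON_13945, and the RNA-binding protein gene ESRP2, PCON_08074, were the remaining large rises with detectable vegetative counts. The PIR3 gene stood at 532 and 1009 CPM against 0.067 and 0.575 CPM (log2 fold change 11.18, SE 2.35, edgeR adjusted p = 0.0059), and its call was lost without vegetative mycelium 1, where the log2 fold change was 10.36 (edgeR adjusted p = 0.0559). Its protoapothecium levels were 3.04, 43.4 and 413 CPM, a wide spread. The ESRP2-like gene stood at 191 and 397 CPM against 0.067 and 0.383 CPM (log2 fold change 10.29, SE 1.67, edgeR adjusted p = 0.0016). Sexual mycelium 2 was higher than sexual mycelium 1 in both genes, and neither library overlapped the vegetative range.

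The 12 described genes with the largest falls included an antigen-like protein, a methyltransferase of secondary metabolism and a cellulose-degrading enzyme. The gene for a heat-stable 19 kDa antigen, PCON_09664, stood at 204 and 701 CPM in vegetative mycelium and 1.99 and 1.93 CPM in sexual mycelium, a 231-fold difference (log2 fold change -7.85, SE 0.68, edgeR adjusted p = 7.36e-05). It was below 1 CPM in both pool libraries and at 2.67 to 5.45 CPM in protoapothecia, so that of the 4 groups vegetative mycelium alone held it at a high level. A gene similar to sterigmatocystin 8-O-methyltransferase, PCON_10694, a mycotoxin-pathway enzyme in Aspergillus, stood at 84.3 and 79.7 CPM against 0.900 and 0.668 CPM. The probable beta-glucosidase E gene, PCON_09067, whose product would release glucose from cellulose fragments, stood at 141 and 165 CPM against 2.04 and 4.60 CPM (46.1-fold lower in sexual mycelium). For both of the latter genes the groups did not overlap, and the pool lay between them, at 16.1 and 20.6 CPM and at 25.1 and 38.9 CPM.

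Signalling, oxygen-binding and transport functions were named among the further large falls. The gene for psi-producing oxygenase A, PCON_11932, whose Aspergillus counterpart makes oxylipin signals that balance sexual and asexual sporulation, stood at 2573 and 1672 CPM in vegetative and 41.7 and 37.7 CPM in sexual mycelium (log2 fold change -5.74, SE 0.49, edgeR adjusted p = 7.36e-05). A hemocyanin-like gene, PCON_09691, named for a copper-containing oxygen carrier, stood at 3190 and 2341 CPM against 64.8 and 85.0 CPM, and a gene for conidiation-specific protein 6, PCON_11571, named for a protein of Neurospora conidia, at 546 and 744 CPM against 12.2 and 18.0 CPM. These 3 genes were lower in sexual mycelium by 53.5-fold, 36.9-fold and 42.8-fold. The vanillyl-alcohol oxidase gene PCON_02475, the quinate permease gene PCON_02404 and the carbonic anhydrase gene PCON_05302 fell with log2 fold changes of -5.52, -5.31 and -5.29. A demethylmenaquinone methyltransferase-like gene, PCON_08816, at 61.8 and 57.7 CPM against 0.663 and 1.23 CPM, was higher in the vegetative pool (261 and 231 CPM) than in vegetative mycelium. Of the undescribed genes, PCON_12798 had 1 count in the sexual libraries together and stood at 57.9 and 221 CPM in vegetative mycelium, and PCON_02987 stood at 223 and 177 CPM against 1.47 and 2.38 CPM.

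**Figure D2:**
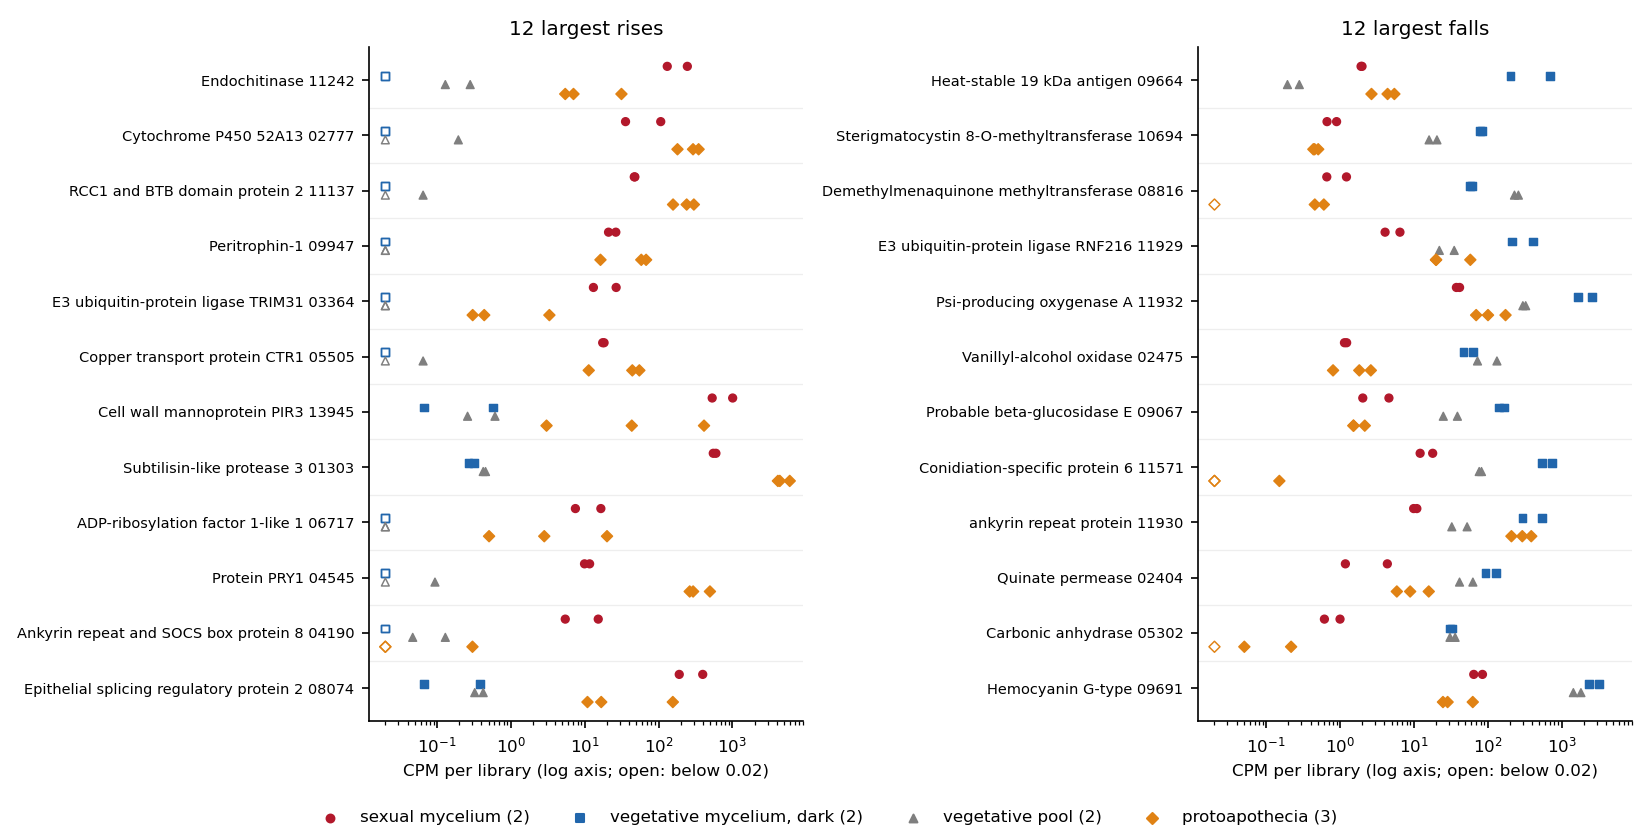
CPM in each of the 9 libraries (x axis, log10 scale) for the 12 described genes with the largest rises and the 12 with the largest falls. Points stand for single libraries (open where below 0.02 CPM) and their colour and shape for the group. The sexual and vegetative points are separated in all 24 genes by the rule that chose them, while protoapothecium points lie on either side of the sexual ones.

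The library plot of these 24 genes shows where protoapothecia lay beside both mycelia. For the falls, the protoapothecium points were low with the sexual points in the hemocyanin-like and beta-glucosidase genes, but the ankyrin repeat gene PCON_11930 stood at 210, 389 and 294 CPM in protoapothecia, near the 296 CPM of vegetative mycelium 2, and at 9.95 and 10.99 CPM in sexual mycelium.

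Outside the largest relative changes, a few genes moved at very high levels, and they are given after their values were seen. An L-tyrosine decarboxylase gene, PCON_12394 (scaffold 678, positions 240919 to 245341), whose product would convert tyrosine to tyramine, stood at 4922 and 3918 CPM in sexual and 6.07 and 12.6 CPM in vegetative mycelium, a 474-fold difference (log2 fold change 8.89, SE 0.52, edgeR adjusted p = 1.35e-05). In protoapothecia it reached 38001, 36552 and 27965 CPM. An alcohol oxidase gene, PCON_06122, fell from 7935 and 6159 CPM to 987 and 649 CPM (log2 fold change -3.11, SE 0.47, edgeR adjusted p = 0.00114). The genes with the most reads in both groups were steadier. The elongation factor 1-alpha gene PCON_04930 stood at 14119 and 14132 CPM in sexual and 18766 and 16549 CPM in vegetative mycelium, a difference that did not pass the test (log2 fold change -0.32, edgeR adjusted p = 0.553). A second elongation factor 1-alpha gene, PCON_11298, and the undescribed gene PCON_13634 differed by -0.31 and -0.30 on the log2 scale, also without passing it.

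Light was the external difference between the cultures, and blue-light perception in fungi rests on the white collar proteins, a photoreceptor transcription factor and its partner. Counts of each gene list, here and below, stand beside 21.1% higher and 9.30% lower among all genes tested. Of 5 light-sensing genes, 1 was higher and 0 were lower, with a median log2 fold change of -0.01. The gene that rose was cryptochrome DASH, PCON_04123, a member of the photolyase family, which stood at 26.3 and 34.3 CPM in sexual and 3.93 and 7.73 CPM in vegetative mycelium (log2 fold change 2.37, SE 0.46, edgeR adjusted p = 0.00378). The vegetative pool, which mixed light and dark cultures, held it at 3.24 and 5.26 CPM. The genes for white collar 1 (PCON_03119), white collar 2 (PCON_05086), the clock protein FRQ (PCON_09365) and a phytochrome (PCON_06747) had log2 fold changes of 0.22, -0.06, -0.41 and -0.01 and did not pass the test.

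Of 3 carotenoid synthesis genes 2 were higher in sexual mycelium and 0 lower, with a median log2 fold change of 4.22. Phytoene dehydrogenase (PCON_03421), which introduces the double bonds that give carotenoids their colour, stood at 363 and 263 CPM in sexual and 10.5 and 23.1 CPM in vegetative mycelium (log2 fold change 4.22, SE 0.51, edgeR adjusted p = 0.000353). The gene for the bifunctional lycopene cyclase and phytoene synthase (PCON_03423) stood at 65.5 and 57.6 CPM against 1.20 and 3.77 CPM (log2 fold change 4.62, SE 0.70, edgeR adjusted p = 0.00115). The vegetative pool, part of which was grown in light, was high as well, at 195 and 371 CPM for the first gene and 42.1 and 89.3 CPM for the second. Both genes lie on scaffold 1455, with 1 gene between them. Geranylgeranyl diphosphate synthase (PCON_05718), which makes the precursor, stood at 60.9 and 66.1 CPM against 30.7 and 38.8 CPM and did not pass the test (log2 fold change 0.87, edgeR adjusted p = 0.0525).

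Several genes named for mating and meiosis were among those that rose. Of 5 mating-type and pheromone genes, 3 were higher and 1 lower, with a median of 1.98. The mating-type gene MAT1-1-1, PCON_07491, an alpha-box transcription factor that sets mating identity, stood at 117 and 89.7 CPM against 27.6 and 24.7 CPM (log2 fold change 1.98, edgeR adjusted p = 0.0016). The pheromone receptor genes PCON_08875 and PCON_02097 stood at 4.88 and 5.61 CPM and at 2.99 and 2.38 CPM in sexual mycelium, against 0.133 and 0.192 CPM and 0 and 0.256 CPM in vegetative mycelium. The pheromone receptor transcription factor gene PCON_08725 had a log2 fold change of -0.76 (edgeR adjusted p = 0.044), a call that was lost with no filter on low counts and with any 1 library left out (adjusted p from 0.0505 without sexual mycelium 1 to 0.272 without sexual mycelium 2, and 0.113 and 0.205 without vegetative mycelium 1 and 2).

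Of 47 genes of meiosis and recombination, 14 were higher (29.8%) and 3 lower (6.38%), beside 21.1% and 9.30% of all genes, with a median of 0.26, and 12, 9, 8 and 9 were higher without sexual mycelium 1, sexual mycelium 2, vegetative mycelium 1 and vegetative mycelium 2 (the order used for such counts below). The list's share of rises was thus not far from that of all genes, and its largest rises are given here. The gene for mei2, PCON_07771, which starts meiosis in fission yeast, stood at 132 and 250 CPM in sexual and 0.267 and 0.383 CPM in vegetative mycelium (588-fold, log2 fold change 9.16, SE 0.86, edgeR adjusted p = 0.000107). RIM4, PCON_12941, an activator of meiotic genes in budding yeast, stood at 69.7 and 116 CPM against 0.467 and 0.575 CPM (178-fold). The counterparts of the meiotically up-regulated genes 28 and 158 of fission yeast, PCON_08796 and PCON_11392, stood at 189 and 336 CPM against 0.267 and 0.511 CPM and at 446 and 295 CPM against 22.3 and 45.4 CPM. All 4 were called, and mei2 and RIM4 were lower in protoapothecia (9.82 to 40.8 CPM and 11.999 to 30.7 CPM) than in either sexual library. The gene for meiotic coiled-coil protein 2, PCON_06031, named after its values were seen, had the largest log2 fold change of the list (10.19) and stood at 343 and 659 CPM against 0.067 and 0.767 CPM, with 15.3 to 191 CPM in protoapothecia. The strand-exchange gene DLH1, PCON_03294, rose from 0.533 and 0.575 CPM to 7.68 and 10.5 CPM (log2 fold change 4.02, edgeR adjusted p = 0.00539). PCON_01122, described as repressing conjugation and meiosis, fell from 1103 and 933 CPM to 443 and 417 CPM (log2 fold change -1.24, SE 0.23, edgeR adjusted p = 0.00298).

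Genes that act in general cell division did not follow. Of 89 genes of DNA replication and the cell cycle, 6 were higher and 1 lower with a median of -0.07, and 4, 3, 3 and 3 were higher and 0 lower with these libraries left out in turn. A fit of the 4 libraries alone called 7 of the 89 genes higher and 7 lower. The kinetochore gene Nuf2, PCON_10059, rose from 26.9 and 20.2 CPM to 67.8 and 98.1 CPM. None of 9 histone genes passed the test in edgeR at an adjusted p (0 at an unadjusted p below 0.05, 0 by DESeq2), with a median of -0.27, while edgeR's fits of the 4 libraries and of the 6 mycelium libraries called 2 and 3 of them lower.

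Among 15 developmental regulators 5 were higher (33.3%) and 3 lower (20%), beside 21.1% and 9.30% of all genes, with a median of 0.27. The 6 genes named for asexual spore formation in other fungi were divided, and whether they mark asexual spores here was not tested. The fruiting body protein SC7 gene PCON_04524, named for a wall-associated protein of the mushroom Schizophyllum, stood at 175 and 63.8 CPM against 0.267 and 1.02 CPM (log2 fold change 7.51). It was high in the vegetative pool too, at 24.9 and 102 CPM, and at 0.964 to 2.18 CPM in protoapothecia. The wetA gene PCON_02676, which acts in conidial maturation in Aspergillus, stood at 61.0 and 66.0 CPM in sexual and 468 and 521 CPM in vegetative mycelium (log2 fold change -2.96, SE 0.26, edgeR adjusted p = 8.08e-05), while protoapothecia held 1175, 1233 and 1269 CPM. The 3 genes for conidiation-specific protein 6 moved in opposite directions. PCON_11571 fell as given above, whereas PCON_11576 stood at 4.12 and 31.5 CPM against 0.133 and 0.383 CPM and PCON_11572 at 1.61 and 11.7 CPM against 0 counts. The last pair of genes was much higher in sexual mycelium 2 than in sexual mycelium 1. The genes for abaA (PCON_12773) and conidiation-specific protein 10 (PCON_08706) had log2 fold changes of 0.15 and 1.74 and did not pass the test.

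NADPH oxidases make superoxide and are needed for fruiting body formation in several ascomycetes, and STRIPAK is a signalling complex with a similar role. Of 6 such genes 1 was higher and 1 lower. Of both genes described as the NADPH oxidase heavy chain subunit A, PCON_03267 stood at 10.1 and 6.201 CPM in sexual and 151 and 129 CPM in vegetative mycelium (log2 fold change -4.10, SE 0.46, edgeR adjusted p = 0.000241), and PCON_03126 at 122 and 117 CPM against 106 and 109 CPM (log2 fold change 0.16, edgeR adjusted p = 0.789). The NADPH oxidase activator 1 gene PCON_05808 stood at 10.6 and 11.5 CPM in sexual mycelium with 2 counts in the vegetative libraries together. The striatin gene Pro11, PCON_13421, at 93.6 and 93.2 CPM against 119 and 120 CPM, did not pass the test.

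Lectins are sugar-binding proteins that many fungi accumulate in fruiting bodies. Of 6 lectin genes 2 were higher and 0 lower. The fucose-specific lectin gene PCON_04233 stood at 4779 and 3805 CPM in sexual and 7.40 and 11.4 CPM in vegetative mycelium, a 456-fold difference (log2 fold change 8.83, SE 0.48, edgeR adjusted p = 1.15e-05), with 214 and 258 CPM in the pool and 15066, 16989 and 10201 CPM in protoapothecia. Its neighbour with the same description, PCON_04232, had a log2 fold change of -0.02. A second lectin gene, PCON_12683, stood at 350 and 249 CPM against 1.13 and 1.79 CPM (205-fold), with 2779 to 7107 CPM in protoapothecia. For both genes that rose, every sexual library lay below every protoapothecium library.

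Genes of the cell wall and of enzymes that act on it held calls in both directions. The shares higher and lower in this list, 23.6% and 10.9%, were near the 21.1% and 9.30% of all genes. Of 55 genes for chitin, glucan and wall proteins 13 were higher and 6 lower, with a median of -0.21, and 9, 9, 7 and 9 were higher with these libraries left out in turn. Beside the endochitinase and PIR3 genes above, a further PIR3-like gene, PCON_03885, stood at 117 and 210 CPM against 0.400 and 0.192 CPM (log2 fold change 9.09) and at or below 1.16 CPM in protoapothecia. An endo-1,3(4)-beta-glucanase gene, PCON_06371, rose from 1.13 and 1.47 CPM to 18.8 and 19.8 CPM. A chitin synthase export chaperone gene, PCON_06072, fell from 172 and 182 CPM to 48.8 and 46.3 CPM (log2 fold change -1.89, SE 0.22, edgeR adjusted p = 0.000303).

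Genes for the breakdown of plant cell walls held more falls than rises. Of 56 tested, 22 were lower (39.3%) and 6 higher, with a median of -0.75, beside 9.30% lower among all genes, and 14, 19, 21 and 14 were lower with these libraries left out in turn. Beside beta-glucosidase E, the beta-glucosidase 1B gene PCON_12780 fell from 101 and 130 CPM to 4.36 and 10.1 CPM and the endoglucanase-4 gene PCON_07959 from 59.1 and 54.6 CPM to 2.94 and 4.83 CPM. The members that rose included cutinases, esterases that act on the plant cuticle. The cutinase gene PCON_03950 stood at 342 and 437 CPM against 99.4 and 87.9 CPM, and reached 1533 to 2347 CPM in protoapothecia. The cutinase gene PCON_12023 stood at 108 and 127 CPM against 22.1 and 21.0 CPM.

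Of 80 protease and peptidase genes 20 were higher and 5 lower, with a median of 0.16, and 16, 14, 13 and 14 were higher with 1 library left out in turn. The shares higher and lower among the 80 genes, 25% and 6.25%, were near the 21.1% and 9.30% of all genes. The subtilisin-like pepC gene PCON_07960 stood at 69.6 and 89.8 CPM and the leucine aminopeptidase 2 gene PCON_09212 at 75.8 and 43.1 CPM in sexual mycelium, with 2 and 3 counts in the vegetative libraries together. The former was high in protoapothecia (89.2 to 406 CPM) and the latter was not (1.31 to 4.59 CPM). A zinc metalloprotease gene, PCON_09816, fell from 21.2 and 20.9 CPM to 0.711 and 0.631 CPM.

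Genes for enzymes of secondary metabolism held calls in both directions within the same families. Of 31 cytochrome P450 genes, which oxidise lipids and secondary metabolites, 13 were higher and 10 lower, with a median of -0.09, which is 41.9% and 32.3% beside 21.1% and 9.30% of all genes. Of 6 genes described as cytochrome P450 67, 3 were higher and 3 lower. The cytochrome P450 67 gene PCON_04348 stood at 272 and 122 CPM against 0.133 and 0.256 CPM (log2 fold change 9.93, SE 0.60, edgeR adjusted p = 1.5e-05), and the P450 83A1 gene PCON_03426 at 28.2 and 43.9 CPM against 0.933 and 0.383 CPM. Of 7 pisatin demethylase genes 3 were lower and 1 higher. PCON_02468 and PCON_04236 among them, named for a P450 of plant pathogens that detoxifies a pea defence compound, fell from 305 and 301 CPM to 22.1 and 17.6 CPM and from 51.9 and 62.2 CPM to 7.54 and 7.24 CPM. With 1 library left out in turn, 11, 10, 9 and 10 P450 genes were higher and 6, 6, 7 and 5 lower. Of 16 genes for polyketide and peptide synthases and melanin 2 were higher (12.5%) and 3 lower (18.75%). The tyrosinase gene PCON_01522, whose product oxidises tyrosine on the way to melanin, rose from 0.133 and 0.639 CPM to 9.19 and 8.32 CPM, while the tyrosinase gene PCON_01775 fell from 325 and 287 CPM to 105 and 62.9 CPM and the laccase-2 gene PCON_10802 from 26.005 and 43.0 CPM to 2.46 and 3.04 CPM.

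Of 6 oxylipin enzymes tested 3 were higher and 1 lower, all 4 of them described as psi-producing oxygenase A. PCON_11932 fell as given above. PCON_10323 stood at 848 and 671 CPM against 265 and 340 CPM (log2 fold change 1.33, edgeR adjusted p = 0.0053), a call lost without vegetative mycelium 1 (edgeR adjusted p = 0.0643). PCON_13884 stood at 273 and 137 CPM against 69.2 and 84.0 CPM, a call lost without sexual mycelium 1 (edgeR adjusted p = 0.0638) and without vegetative mycelium 1 (edgeR adjusted p = 0.0735).

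RNA silencing genes, which use small RNAs to repress transcripts, held a pair of clear falls among 11 tested. The argonaute 1 gene PCON_08335 stood at 33.1 and 49.3 CPM in sexual and 393 and 391 CPM in vegetative mycelium (log2 fold change -3.25, SE 0.46, edgeR adjusted p = 0.000788). The RNA-dependent RNA polymerase 1 gene PCON_09614 stood at 465 and 724 CPM against 2877 and 3572 CPM (log2 fold change -2.44, SE 0.42, edgeR adjusted p = 0.00213). The vegetative pool, at 94.0 and 112 CPM and at 931 and 1118 CPM, was closer to sexual than to vegetative mycelium in both genes. A total of 2 members were higher, and 1, 0, 0 and 1 with 1 library left out in turn.

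Zinc cluster transcription factors, a fungal family, were lower in 11 and higher in 1 of 37 genes (median -0.41), and 6, 5, 6 and 5 were lower with 1 library left out in turn. A fit of the 4 libraries alone called 16 of the 37 lower and 1 higher. A gene described as transcriptional regulator C15D4.02 of fission yeast, PCON_02877, fell from 1032 and 912 CPM to 261 and 246 CPM. A TBS1-like gene, PCON_01753, fell from 54.5 and 48.4 CPM to 8.72 and 12.7 CPM. Of 21 factors of the homeobox, HMG, GATA, bZIP, forkhead and related families 5 were higher and 3 lower, and 0, 0, 1 and 1 were lower with 1 library left out in turn. The forkhead gene PCON_10789 stood at 49.6 and 32.1 CPM against 0.867 and 0.894 CPM (log2 fold change 5.52, SE 0.51, edgeR adjusted p = 0.000103) and the GATA factor gene PCON_06721 had a log2 fold change of 1.69 (edgeR adjusted p = 0.00239).

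Of 92 protein kinase genes 6 were higher and 7 lower (median -0.05), and 2 were lower whichever single library was left out. A fit of the 4 libraries alone called 13 kinase genes higher and 17 lower. The GIN4 kinase gene PCON_07378, named for a kinase of the budding yeast septin ring, rose from 0.533 and 0.383 CPM to 45.2 and 42.7 CPM. The ssp1 kinase gene PCON_13641 fell from 521 and 534 CPM to 151 and 167 CPM. Of 88 genes for ubiquitin ligases and F-box proteins 10 were higher and 7 lower, among them PCON_11137 and PCON_11929 of the largest changes. Of 76 cytoskeleton and motor genes 1 was higher and 4 lower, with 2, 2, 3 and 2 lower when 1 library was left out in turn and 10 lower in the fits of the 4 and of the 6 mycelium libraries. The actin patch protein 1 gene PCON_09493 fell from 71.9 and 89.8 CPM to 9.10 and 8.84 CPM and the kinesin light chain gene PCON_07631 from 305 and 255 CPM to 34.6 and 41.9 CPM.

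Genes for protein synthesis were lower or did not pass the test in nearly all cases, and genes for energy supply held few calls. Of 86 cytosolic ribosomal protein genes 23 were lower and 1 higher with a median of -0.60, a count of falls that was 0, 8, 2 and 0 with 1 library left out in turn and 40 by DESeq2, 62 in a fit of the 4 libraries and 63 in a fit of the 6 mycelium libraries, while the median stayed between -0.73 and -0.53. Of 61 mitochondrial ribosomal protein genes, 0 passed the test in edgeR (4 at an unadjusted p below 0.05, 1 by DESeq2, and 4 in edgeR's fits of the 4 libraries and of the 6 mycelium libraries), with a median of 0.25. Of 56 respiratory chain and ATP synthase genes 2 were higher and 0 lower, and of 24 genes of the citrate and glyoxylate cycles 1 was higher and 1 lower. Other lists of housekeeping and stress functions held few calls in the fit of all 9 libraries. In sum they held fewer with any 1 library left out and more in the fit of the 4 libraries alone. There were 0 higher and 2 lower of 59 ribosome biogenesis genes, 1 and 0 of 30 proteasome genes, 2 and 3 of 56 chaperone genes, 1 and 2 of 21 autophagy genes, 3 and 3 of 49 beta-oxidation genes, 0 and 1 of 11 glycogen and trehalose genes and 0 and 1 of 17 MAP kinase and G protein genes. For these 7 lists in the same order, the fit of the 4 libraries alone gave more calls. They were 0 and 14, 4 and 0, 6 and 6, 2 and 2, 4 and 11, 1 and 5, and 0 and 4. Of 20 heterokaryon incompatibility genes 3 were higher and 2 lower, and of 9 transposon-like genes 2 were higher. Of 16 glycolysis genes 2 were higher and 3 lower, and single members moved far. A fructose-bisphosphate aldolase-like gene, PCON_05063, fell from 99.6 and 90.3 CPM to 5.02 and 5.38 CPM, and a glyceraldehyde-3-phosphate dehydrogenase gene, PCON_06032, stood at 7.82 and 34.7 CPM against 0.200 and 0.511 CPM.

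Lipid synthesis genes were lower in 12 and higher in 3 of 43 (median -0.35), with 8, 5, 6 and 5 lower when 1 library was left out in turn. The acyl-CoA desaturase gene PCON_03679, which would introduce the first double bond into fatty acids, fell from 434 and 411 CPM to 71.1 and 90.5 CPM and was highest in the vegetative pool (1468 and 1582 CPM). The delta(12) desaturase gene PCON_06932, which would add the next double bond, rose from 55.1 and 62.2 CPM to 240 and 171 CPM. Of 190 permease and transporter genes 34 were higher (17.9%) and 36 lower (18.9%), beside 21.1% and 9.30% of all genes. With 1 library left out in turn, 26, 25, 21 and 24 were higher and 31, 23, 29 and 27 lower. An amino-acid permease gene, PCON_03517, rose from 0.133 and 0.639 CPM to 111 and 78.3 CPM and reached 1104 to 2064 CPM in protoapothecia. An uncharacterized transporter gene of the MFS type, PCON_09295, fell from 175 and 136 CPM to 14.1 and 14.5 CPM. Among 43 genes of oxidative stress and redox 6 were higher and 3 lower, and 4, 3, 3 and 4 were higher with 1 library left out in turn. The catalase gene PCON_07431 fell from 1557 and 1358 CPM to 328 and 333 CPM and the superoxide dismutase 5 gene PCON_08184 from 561 and 623 CPM to 227 and 204 CPM.

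**Figure D3:**
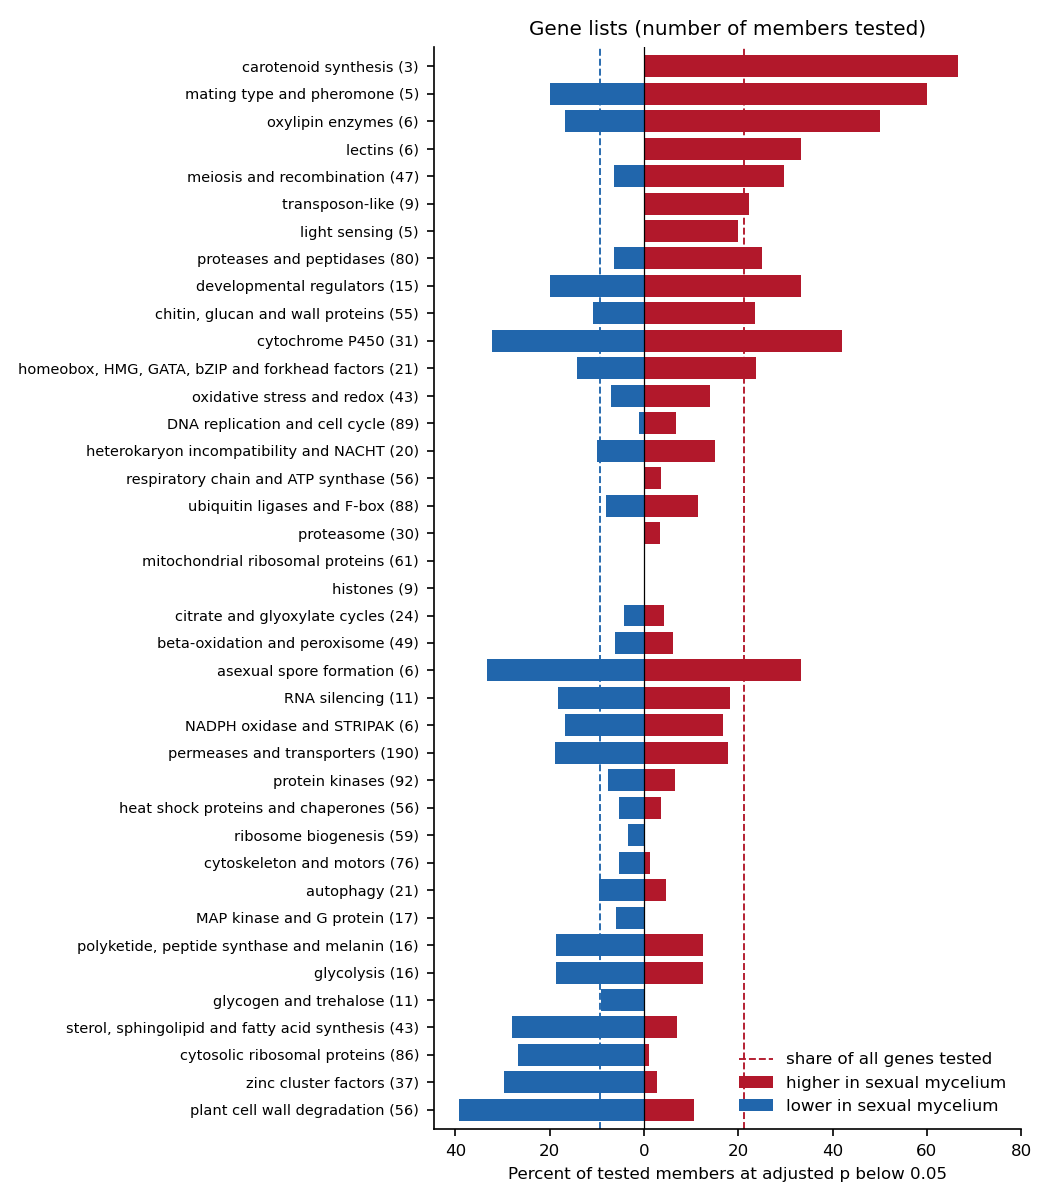
Percent of the tested members of each gene list (rows, number of members in parentheses) called higher (bars to the right of 0) or lower (bars to the left) in sexual against vegetative mycelium. Dashed lines mark the shares of all genes tested, 21.1% and 9.30%. Among others, carotenoid, mating and P450 genes exceed the right line, and plant cell wall degradation, P450, zinc cluster and lipid synthesis genes exceed the left one.

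The list plot sets these shares beside those of all genes. In most lists of housekeeping functions both shares were under the dashed lines. Some product descriptions were shared by genes that changed in opposite directions. Of 441 descriptions shared by at least 2 tested genes, 45 had members called in both directions, 212 had members called in 1 direction and 184 had none. Of 22 genes described as demethylmenaquinone methyltransferase 9 were lower and 1 was higher, the latter being PCON_13697 at 57.2 and 29.0 CPM against 0.733 and 3.07 CPM. Of 9 peritrophin-1 genes 5 were higher and 3 lower.

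Genes that changed were often neighbours on a scaffold. Of 1986 genes that rose and were followed by a tested gene, 796 (40.1%) had a next gene that rose as well, against 21.1% of all genes, and 174 of 850 genes that fell (20.5%) were followed by one that fell, against 9.30%. There were 79 runs of at least 4 consecutive genes with the same call, 73 of rises with 370 genes and 6 of falls with 27 genes. The longest run, 11 genes from PCON_01380 to PCON_01390 on scaffold 1087 (positions 195464 to 218512), held 9 undescribed genes.

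A run of rises with described enzymes lay at positions 1001 to 18172 of scaffold 1449, from PCON_03340 to PCON_03345. It starts with a gene similar to a linear gramicidin synthase subunit, PCON_03340, a peptide synthetase, at 11.8 and 20.2 CPM in sexual and 0.333 and 0.064 CPM in vegetative mycelium. A glyoxal reductase gene, PCON_03341, stood at 134 and 160 CPM against 6.87 and 9.07 CPM, and a gene for the vacuolar membrane protein btn1, PCON_03342, at 121 and 72.6 CPM against 8.33 and 12.01 CPM. The gene for 2-epi-5-epi-valiolone synthase, PCON_03344, a cyclase of sugar phosphates, stood at 1433 and 1509 CPM against 6.401 and 25.0 CPM (93.6-fold, log2 fold change 6.55, SE 0.65, edgeR adjusted p = 0.000144), with 2163, 3298 and 2053 CPM in protoapothecia. Both catechol O-methyltransferase genes of the run, PCON_03343 and PCON_03345, which would transfer methyl groups to ring hydroxyls, rose with log2 fold changes of 6.09 and 5.10. All 6 genes had sexual libraries above both pool libraries and, as in every gene called higher, above both vegetative libraries.

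Runs of falls included a set of diterpene-type genes on scaffold 604, from PCON_11419 (start 38640). Copalyl diphosphate synthase (PCON_11419) and ent-kaurene oxidase, enzymes that in other fungi belong to gibberellin synthesis, stood beside each other. The former fell from 49.1 and 30.5 CPM to 4.12 and 5.01 CPM, and the ent-kaurene oxidase genes PCON_11420 and PCON_11421 from 56.5 and 51.0 CPM to 5.02 and 5.68 CPM and from 51.8 and 47.7 CPM to 3.84 and 4.42 CPM. The vegetative pool was higher than vegetative mycelium in each of these genes, at 98.5 and 104 CPM, 227 and 264 CPM, and 118 and 129 CPM. Protoapothecia spread from 4.21 to 21.1 CPM for the first and from 65.0 to 205 CPM for the second. A further run on scaffold 653 held the ligase gene PCON_11929, the ankyrin gene PCON_11930 and the oxygenase gene PCON_11932. On scaffold 456, the antigen gene PCON_09664 was followed by PCON_09665 and PCON_09667, which had 0 counts in both sexual libraries and stood at 1.60 and 2.81 CPM and at 3.33 and 8.88 CPM in vegetative mycelium. At a floor of 3 counts, PCON_09665 and PCON_09667 were at least 35.3-fold and 97.8-fold lower in sexual mycelium. In the vegetative pool and protoapothecia they were at 0 to 0.065 CPM.

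**Figure D4:**
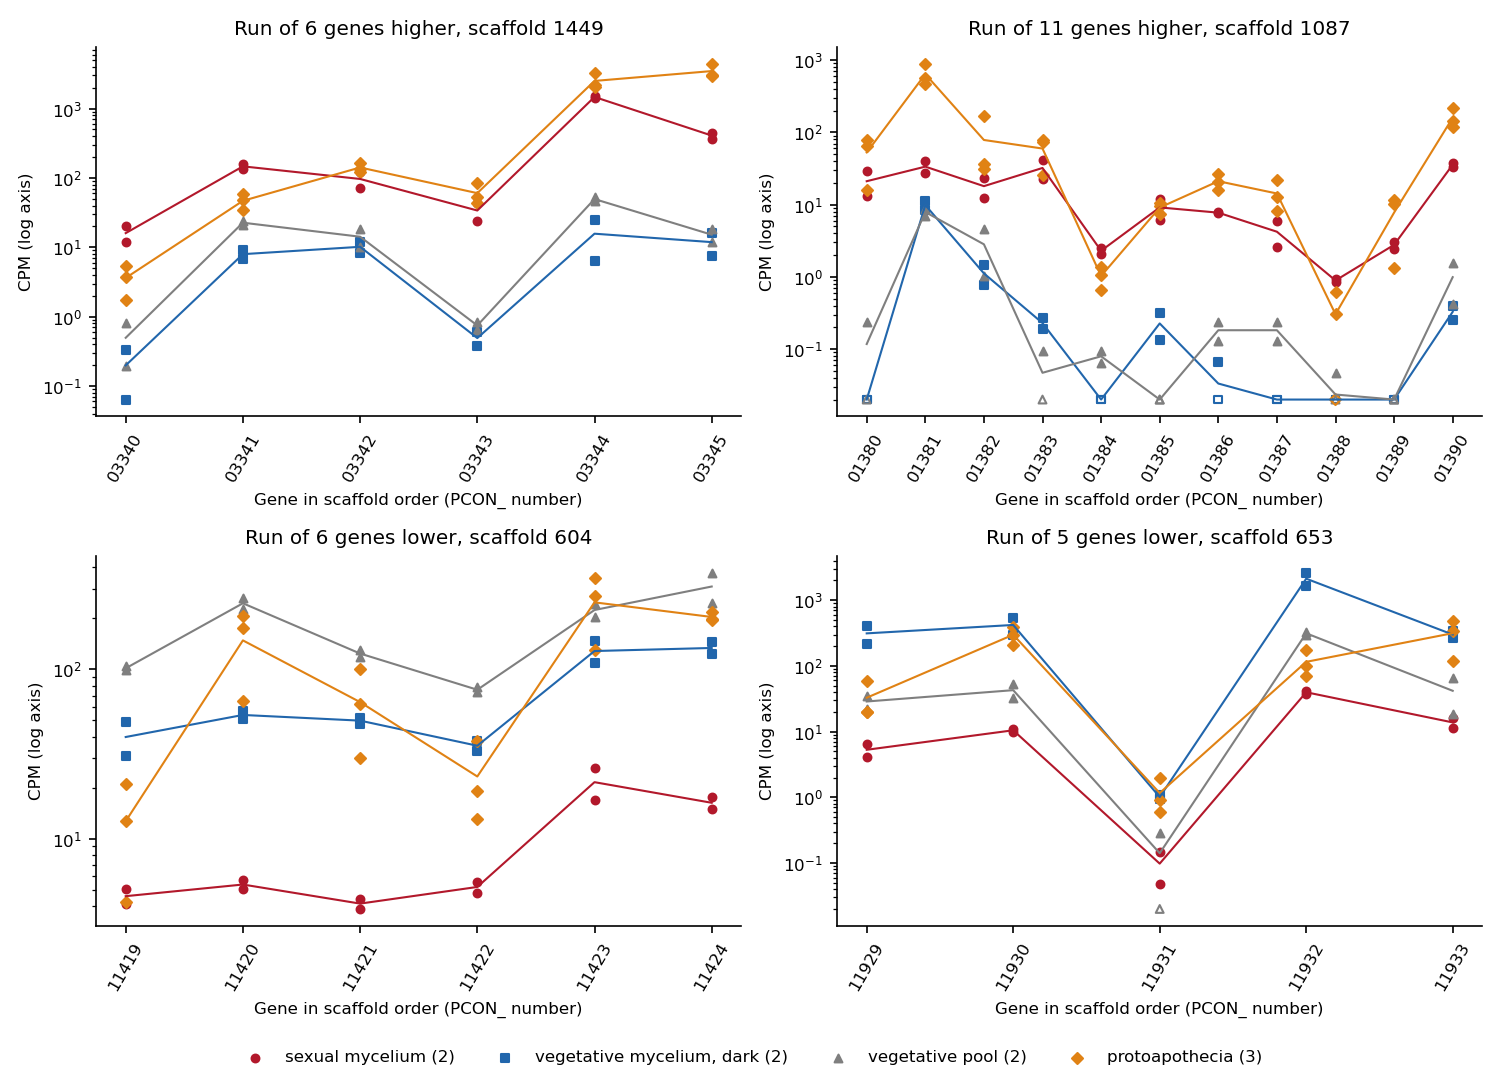
CPM (y axis, log10 scale) of the consecutive genes (x axis, in scaffold order) of 4 runs. Points stand for single libraries (open where below 0.02 CPM) and lines join the means of the 4 groups. In the runs on scaffolds 1449 and 1087 sexual mycelium and, in most genes, protoapothecia lie above both vegetative groups, and in the run on scaffold 604 sexual mycelium lies below both.

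The plot of runs shows that neighbours with the same call differed in level. The valiolone synthase gene of the first run stood above 1400 CPM in sexual mycelium and the peptide synthetase gene at its start stood at 20.2 CPM or below.

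Protoapothecia and the vegetative pool, whose libraries are not part of the comparison, gave a further sorting of the genes. It came from the same fit, with the same estimate of spread per gene and the same filter on the 4 libraries compared. The sorting is thus not independent of the calls, and genes below the filter in the mycelia compared were left out of it. Protoapothecium-enriched genes (adjusted p below 0.05 and a log2 fold change above 2 against the pool, by the same edgeR test) numbered 2625 (22.9% of those tested) and protoapothecium-depleted genes 2300 (20.1%). Of the enriched genes 1589 were higher in sexual than in vegetative mycelium, 60.5% (95% Clopper-Pearson interval 58.6 to 62.4%), and 75 were lower, with a median log2 fold change of 3.12. Of the depleted genes 434 (18.9%, interval 17.3 to 20.5%) were lower and 116 higher, with a median of -0.30. Genes in neither set were higher in 713 and lower in 555 of 6515 cases. Of the enriched genes, 1187 had fewer than 10 counts in both vegetative libraries, so that they entered through the sexual libraries, and 1064 of these were called higher. Among the 1243 enriched genes with at least 10 counts in both vegetative libraries, 405 (32.6%) were higher, beside 8.80% of all such genes. The median level of the enriched genes was 27.6 CPM in protoapothecia, 9.65 CPM in sexual mycelium and 0.686 CPM in vegetative mycelium. With 1 library left out, 47.1 to 51.2% of enriched genes were higher and 10.6 to 13.0% of depleted genes lower, so that the latter share moved by more than 1.5 times without sexual mycelium 1 (10.6%), sexual mycelium 2 (12.2%) or vegetative mycelium 1 (12.4%).

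**Figure D5:**
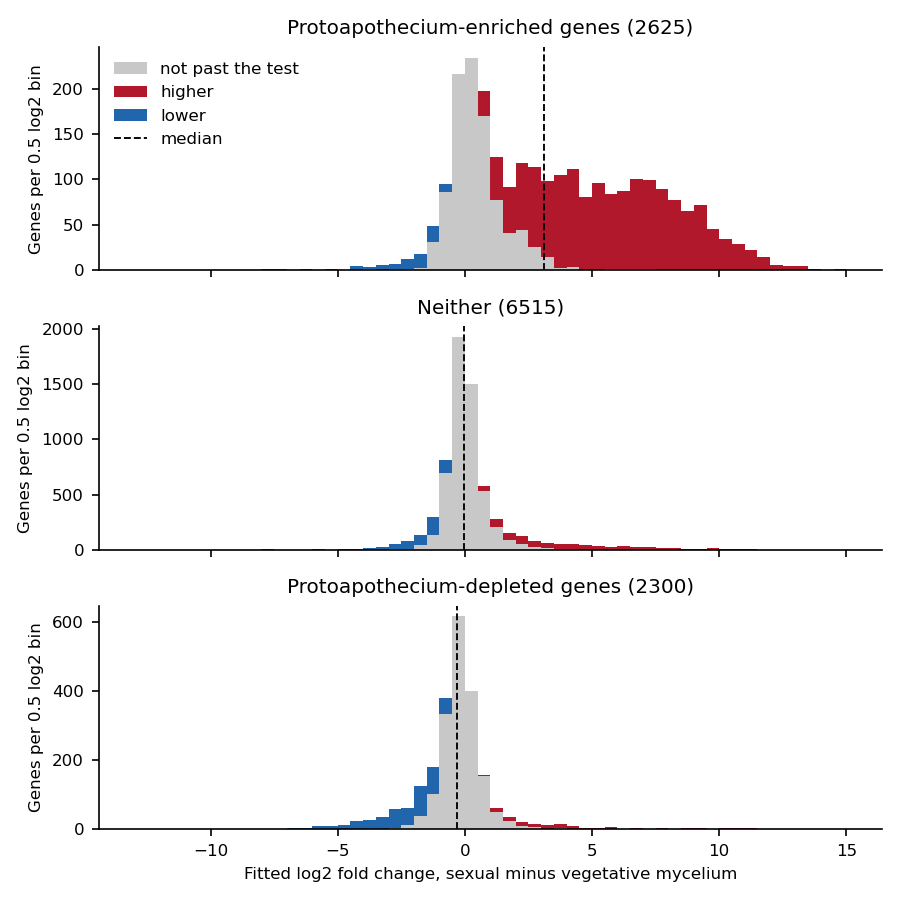
Number of genes (y axis) by fitted log2 fold change between sexual and vegetative mycelium (x axis, bins of 0.5) for protoapothecium-enriched, protoapothecium-depleted and remaining genes. Colours mark the calls and the dashed line the median. The enriched genes spread to the right with a median of 3.12, and the other sets centre near 0, the depleted ones with a tail to the left.

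The histograms of the 3 sets carry no test, and the fitted changes of genes with no vegetative counts are no bounds, since they depend on the prior count. From the side of the calls, 65.7% of the genes that rose were protoapothecium-enriched and 4.80% depleted, 7.05% and 40.8% of those that fell, and 12.1% and 22.0% of those not called.

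The pair of sexual libraries differed from each other more than the pair of vegetative libraries did. Such differences were more frequent among genes that rose than among all genes tested. Among genes at 10 CPM or more, sexual mycelium 2 was over 2-fold above sexual mycelium 1 for 326 of 7466 genes (4.37%) and the reverse held for 74 (0.991%). The vegetative pair gave 73 (1.08%) and 18 (0.267%) of 6750. Of the 2418 genes that rose, 400 (16.5%) were over 2-fold higher in sexual mycelium 2, beside 714 (6.24%) of all genes tested. No product was described for 300 of the 400 and 428 of the 714. The median in protoapothecia was 2.27 CPM for the 714 as well as for the 400, and 53.3% of the 400 were protoapothecium-enriched. For the 1908 genes that rose and lay within 2-fold, these values were 16.2 CPM and 70.3%. Named examples of the 400, chosen after their values were seen, were a thioredoxin-1 gene, PCON_06978, at 94.4 and 244 CPM, and a metacaspase-1 gene, PCON_10130, at 35.3 and 83.3 CPM, with 0.761 to 19.5 CPM and 0 to 3.13 CPM in protoapothecia. In vegetative mycelium they had 4 and 3 counts in all.

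The authors' deposited table holds their own call of each gene for the same comparison. It marks 2751 of the tested genes as higher (24.0%) and 620 as lower (5.42%). Of the 2418 genes higher here, 2328 carried the same mark in the authors' deposited table, 90 carried none and 0 the opposite one. Of the 1064 genes lower here, 560 carried the same mark in the authors' deposited table and 504 none.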

How the data were processed

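Whole-number read counts per gene for 9 libraries were taken from the table deposited by the authors. The submitters' processing notes name CASAVA 1.8.2 and DESeq (no version). Aligner, counter, genome build and strandedness of counting are not stated in the material used here, and the authors' marks of changed genes are a deposited score of -1, 0 or 1, whose rule is likewise not stated. RNA of the mycelia was extracted with a modified Qiagen RNeasy lipid tissue protocol, and all libraries were Illumina libraries, per the labels' protocols. Positions are given on the scaffolds of that table, and products are its similarity-based descriptions, so a name does not establish a function in this fungus. Among the genes tested, 380 overlap another gene and were left out of the choice of largest rises and falls, since strand is unknown. All columns of per-sample values belong to the 9 libraries.

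The software was edgeR 4.0.16 and limma 3.58.1 under R 4.3.3. Genes with at least 10 counts in at least 2 of the 4 libraries compared were kept (11440 of 13369). Libraries were scaled by TMM, and 1 fit over 9 libraries in 4 groups (5 residual degrees of freedom) gave the two-sided robust quasi-likelihood test, with Benjamini-Hochberg adjustment over all genes tested and a threshold of 0.05. CPM are counts scaled to a common total by the TMM-scaled library size. Folds are ratios of mean CPM. Where a group held 0 counts, 3 counts over that group stand in for it and the fold is a lower bound, and where it held 1 to 3 counts no fold is given. The floors reflect counting error alone, because reads without molecular identifiers can be copies of 1 molecule. The 95% intervals of a share of genes treat genes as independent draws, which they are not, and leave out the spread between libraries. Counts were simulated for 11440 genes in this comparison. Of these, 52 of 105 genes changed 4-fold, 3 of 95 changed 2-fold and 3 of 11240 unchanged genes were called. Far fewer genes changed in the simulation than were called in the data. The adjustment was therefore stricter there, and these shares do not carry over to the data. With more than 3 counts in each group, 1423 of 2070 genes at least 2-fold higher in sexual mycelium were called. For genes at least 2-fold lower it was 882 of 1272. Both include changes far above 2-fold.

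The members and gene lists (39 lists, patterns on the product descriptions) were chosen with earlier results of these data known. Genes were chosen by rule, and not every one is given above. The rule took the 12 largest rises and 12 largest falls among described genes at 10 CPM or more whose groups did not overlap. From each list it took the 4 members with the smallest p (all members where at most 8 were tested). It also took the 3 most abundant genes of each group and 2 undescribed genes in each direction. Further genes were named after their values were seen, namely the tyrosine decarboxylase, alcohol oxidase, thioredoxin, metacaspase and methyltransferase PCON_13697, both cutinases PCON_03950 and PCON_12023, endoglucanase-4, the genes of the runs, meiotic coiled-coil protein 2, DLH1 and the negative regulator PCON_01122. The alternatives were RLE scaling, other filters, fits of fewer libraries, DESeq2 1.42.0, a test against a fold of 2, a replicate block and leaving out each library. The 210 genes chosen in these ways are the named genes of the last section, and PCON_02490 among them overlaps another gene. No sequence is shown.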

Additional observations from a re-analysis of the deposited data

How the results depend on the processing

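The count of genes higher in sexual mycelium stayed within 1.5 times of 2418 under every alternative run, from 1684 to 2996. The count of genes lower (1064) was 1974 in a fit of the 6 mycelium libraries, 1954 in a fit of the 4 libraries, 485 in a test against a fold change of 2, and 560 to 645 with 1 library left out. The share of protoapothecium-enriched genes that were higher (60.5%) was 57.2% with RLE scaling, 57.8% with edgeR's own filter, 55.7% without a filter, 65.6% and 66.3% in the fits of 6 and 4 libraries, and 47.1 to 51.2% with 1 library left out. The share of depleted genes that were lower (18.9%) was 31.0% and 30.9% in those fits, 24.9% by DESeq2 and 10.6 to 13.0% with 1 library left out. The cause was not tested, beyond the fewer libraries of the latter fits, in which a lone library is assumed to vary like the other groups. With the replicate number as a block in the fit of the 6 mycelium libraries, 2769 genes were higher and 1932 lower. The labels do not say whether equal numbers pair the samples. Same-numbered deviations from the group means correlated at 0.121 (sexual and vegetative mycelium), -0.160 (sexual mycelium and pool) and -0.0373 (vegetative mycelium and pool). With 1 pair of libraries per group, these values cannot decide whether the samples were paired.

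Of 210 named genes, 164 were called, 158 of these kept the call under each alternative that keeps all libraries of both groups, 124 kept it under every alternative run, and 0 of those called reversed. Log2 fold changes that changed sign were all of genes that did not pass the test. With 1 library left out they ranged from -0.21 to 0.14 for PCON_04232, from -0.22 to 0.17 for PCON_06747, from -0.014 to 0.57 for PCON_08389 and from -0.57 to 0.64 for PCON_08404. Levels of 3 counts, 0.111 to 0.200 CPM in the mycelia, limit what the lowest vegetative levels can show.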
